A study of Homo sapiens with 34 samples.

Results

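H3K27ac and RNA polymerase II (Pol II) were set side by side in uninduced DLD1 cells, in which no doxycycline had been given. The regions are those of the 2 uninduced ChIP-seq peak lists on the 22 autosomes and X, with rows that repeat a region for several summits collapsed to 1. They number 78005 for H3K27ac and 57247 for Pol II, together 135252 of the 265904 regions in the 4 lists of the series, and come from 4 of its 34 samples. DLD1 is a human colorectal adenocarcinoma line. All ChIP-seq cells, uninduced ones included, carry a Tet-inducible dominant negative TCF7L2 and were grown with zeocin and blasticidin. The induced cells, used here only as a second measurement of the same quantities, received 1 µg/mL doxycycline for 24 h. H3K27ac was precipitated with Abcam ab4729 and Pol II with Abcam ab26721, in 2 samples per mark and condition, and there was 1 input per condition. Single reads of 75 bp were sequenced to 40 to 55M per sample from chromatin sheared to 250 to 300 bp on average, per the labels' protocols. The labels name 1 list for both samples of a group, so the values of the 2 samples could not be set apart and the differences given here are untested.

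H3K27ac is an acetyl group on a lysine of the histone H3 tail, placed by the acetyltransferases CBP and p300 at active promoters and enhancers. It sits on nucleosomes, while Pol II occupies the nucleosome-poor gap at a gene's start, pauses shortly downstream of it, and slows again past the polyadenylation site before it leaves the DNA. Enhancers bearing the acetyl mark can also recruit Pol II and be transcribed. In the colon, Wnt signalling through beta-catenin and TCF7L2 drives the crypt program, and guanylin (GUCA2A) and uroguanylin (GUCA2B) are the ligands of the receptor guanylate cyclase C (GUCY2C).

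The starts of 7 genes are printed as examples that differed in which mark they carried. They were chosen after the values were seen. A start was taken to carry a mark when a region of that list reached into the window of 1 kb on either side of it. Each line gives the 120 bases before a start, 5′ to 3′ on the gene's strand, from the RefSeq promoter table of GRCh38.p14, with every CG dinucleotide in capitals. NCL (nucleolin, a ribosome biogenesis factor; chr2:231464485-231464604, minus strand) and H2AC6 (a replication-dependent histone H2A; chr6:26124052-26124171, plus strand) carried both marks, as did GUCA2A (chr1:42164746-42164865, minus strand). REG4 (a secreted lectin of secretory gut cells; chr1:119811461-119811580, minus strand) carried H3K27ac alone. CRISPLD2 (a secreted cysteine-rich protein; chr16:84819865-84819984, plus strand) carried Pol II alone. GUCA2B (chr1:42153290-42153409, plus strand) and H1-1 (a linker histone; chr6:26017788-26017907, minus strand) carried neither.
NCL: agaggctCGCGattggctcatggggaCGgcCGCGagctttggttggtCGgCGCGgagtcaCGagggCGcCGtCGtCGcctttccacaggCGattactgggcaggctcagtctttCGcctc
H2AC6: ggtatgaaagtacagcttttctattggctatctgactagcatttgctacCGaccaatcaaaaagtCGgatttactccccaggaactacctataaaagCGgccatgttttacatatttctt
GUCA2A: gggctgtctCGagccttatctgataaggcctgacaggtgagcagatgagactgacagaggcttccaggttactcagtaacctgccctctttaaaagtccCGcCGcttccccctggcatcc
REG4: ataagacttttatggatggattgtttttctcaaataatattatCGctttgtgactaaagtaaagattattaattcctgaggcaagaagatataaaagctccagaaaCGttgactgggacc
CRISPLD2: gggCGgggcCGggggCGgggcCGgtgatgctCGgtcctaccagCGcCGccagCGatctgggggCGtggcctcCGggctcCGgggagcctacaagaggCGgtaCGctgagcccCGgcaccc
GUCA2B: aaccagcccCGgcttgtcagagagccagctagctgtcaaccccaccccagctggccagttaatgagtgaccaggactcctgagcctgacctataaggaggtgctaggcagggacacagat
H1-1: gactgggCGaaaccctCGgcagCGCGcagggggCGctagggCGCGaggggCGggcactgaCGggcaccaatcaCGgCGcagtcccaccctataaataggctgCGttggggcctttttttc

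These stretches hold 15 CG in NCL, 14 in CRISPLD2 and 12 in H1-1, but 3 in H2AC6, 3 in GUCA2A, 2 in REG4 and 1 in GUCA2B. A TATA box with the letters TATAAA begins 31 bases before the start in H2AC6, REG4 and H1-1 alike, which differed in marks. Single promoters did not sort by these letters, and the counts over all listed starts are given further on.

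The Pol II list was the smaller one, with narrower regions. H3K27ac regions covered 136.6 Mb with a median width of 1159 bp, and Pol II regions 70.9 Mb with a median of 733 bp. A single summit was listed in 46.2% of H3K27ac and 65.4% of Pol II regions. The median −log10 q, the caller's confidence in a region, was 21.3 for H3K27ac and 9.0 for Pol II. It depends on depth and on the antibody, so below it ranks regions within a list only.

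Most Pol II regions lay on H3K27ac, while most H3K27ac regions lay away from Pol II. Of the Pol II regions, 35645 overlapped H3K27ac by at least 1 bp, which is 62.3% (Wilson 95% interval 61.9 to 62.7, which covers counting error only). Of the H3K27ac regions, 31027 overlapped Pol II, or 39.8% (39.4 to 40.1). The shared 41.5 Mb made up 58.6% of the Pol II sequence and 30.4% of the H3K27ac sequence. In induced cells the shares were 62.3% of Pol II and 33.9% of H3K27ac regions. An H3K27ac region met 2 or more Pol II regions in 4637 cases, with up to 29 in the HOXA cluster.

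The overlap followed the strength of a region within its list. In the highest decile of Pol II by −log10 q, 5723 of 5725 regions (99.97%) overlapped H3K27ac, and in the highest H3K27ac decile 7726 of 7801 (99.04%) overlapped Pol II. By the fifth decile the shares were 63.0% for Pol II and 28.4% for H3K27ac. The curves then parted: the lowest 3 Pol II deciles stayed at 33.2%, 35.1% and 34.5%, while H3K27ac fell on to 9.82% in its lowest. Strong regions that carried a single mark were thus few, and weak Pol II regions met H3K27ac more often than weak H3K27ac regions met Pol II. Width falls along both lists too, from 3600 to 358 bp for H3K27ac and from 1944 to 356 bp for Pol II, and wider regions meet more sequence. The H3K27ac list also held more regions and covered more sequence, 136.6 Mb against 70.9 Mb, which leaves Pol II regions more to meet. The parts of width and list size in the overlap were not tested.

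**Figure D1:**
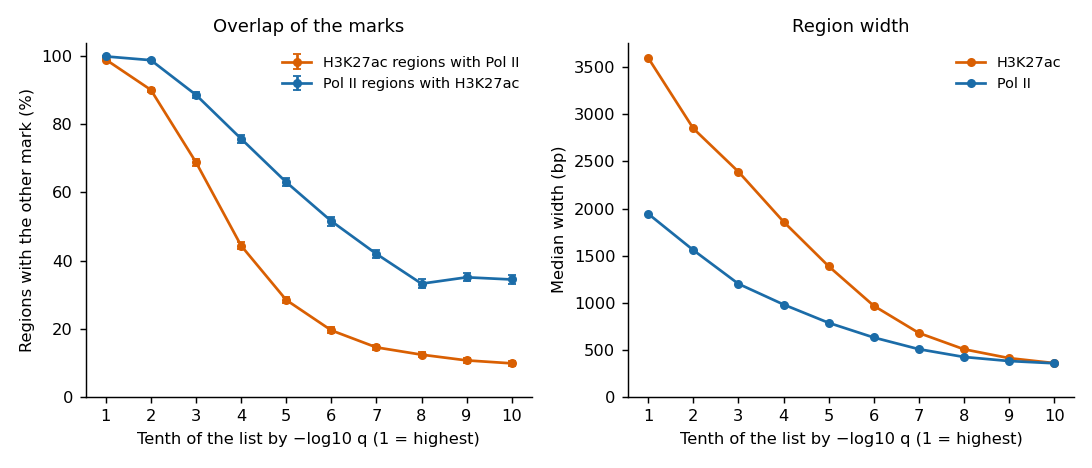
Left, share of regions that overlap the other mark (%, points with Wilson 95% intervals) in each decile of a list by −log10 q; right, median region width (bp) in the same deciles, uninduced cells. Overlap falls from 99.04% to 9.82% for H3K27ac and from 99.97% to 34.5% for Pol II, and width falls along both lists.

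Over the whole lists, regions with the other mark were wider, but this did not hold at matched strength. H3K27ac regions with Pol II had a median width of 2209 bp against 696 bp without, and Pol II regions with H3K27ac 917 bp against 520 bp without. Their −log10 q moved with this: medians were 111.5 and 9.08 for H3K27ac, and 23.5 and 4.34 for Pol II. Within deciles of −log10 q, regions with the other mark were the wider group in 0 of 10 deciles of either list. Medians were equal, at 356 bp, in the lowest Pol II decile. The highest decile held few regions without the other mark, 75 for H3K27ac and 2 for Pol II, as did the second Pol II decile with 65. In the third decile, H3K27ac regions had a median of 2252 bp with Pol II and 2680 bp without. Pol II regions of the same decile had 1111 bp with H3K27ac (n = 5076) and 4178 bp without (n = 649). A further comparison kept the 20000 highest regions of each list and read overlap between these cut lists only. There the order also turned for H3K27ac, at 2762 bp with and 3566 bp without. It held for Pol II, at 1635 bp with and 1100 bp without.

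Where 1 region of each list overlapped only each other, the Pol II region was usually nested in the H3K27ac region. Among 22900 such pairs, 76.0% had Pol II wholly inside H3K27ac and 4.39% the reverse. The median widths were 942 bp for Pol II and 2120 bp for H3K27ac, and H3K27ac was the wider in 87.7%. Pairs within 5 kb past the end of a protein-coding gene were nested less, with 45.0% of 602 Pol II regions inside H3K27ac and 19.3% around it.

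Pol II summits lay beside H3K27ac summits rather than on them. From the strongest summit of a Pol II region on H3K27ac, the nearest H3K27ac summit was at a median of 201 bp (quartiles 129 and 277). It was within 100 bp in 17.6% and within 500 bp in 95.1%. The same distance was 208 bp at gene starts, 201 bp inside genes and 187 bp away from genes, and 197 bp over all such regions in induced cells. Pol II regions without H3K27ac lay at a median of 7.17 kb from the nearest H3K27ac summit. H3K27ac regions without Pol II lay at 15.4 kb from a Pol II summit. These distances are of the order of the sheared fragments, which bounds how finely a summit can be placed.

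At gene starts the offset had a direction. Of 5766 protein-coding genes of at least 5 kb with 1 listed start and no other gene end within 2 kb, 3152 carried both marks. The strongest Pol II summit lay at a median of 39 bp into the gene (quartiles −49 and 74), and 78.4% lay within 150 bp of the start. The strongest H3K27ac summit lay at 251 bp into the gene (170 and 307), with 76.8% more than 150 bp downstream, 17.3% more than 150 bp upstream and 5.97% between. H3K27ac summits stood on both sides of the start with none in the middle at 74.1% of these genes. Induced cells gave 42 bp for Pol II and 250 bp for H3K27ac.

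**Figure D2:**
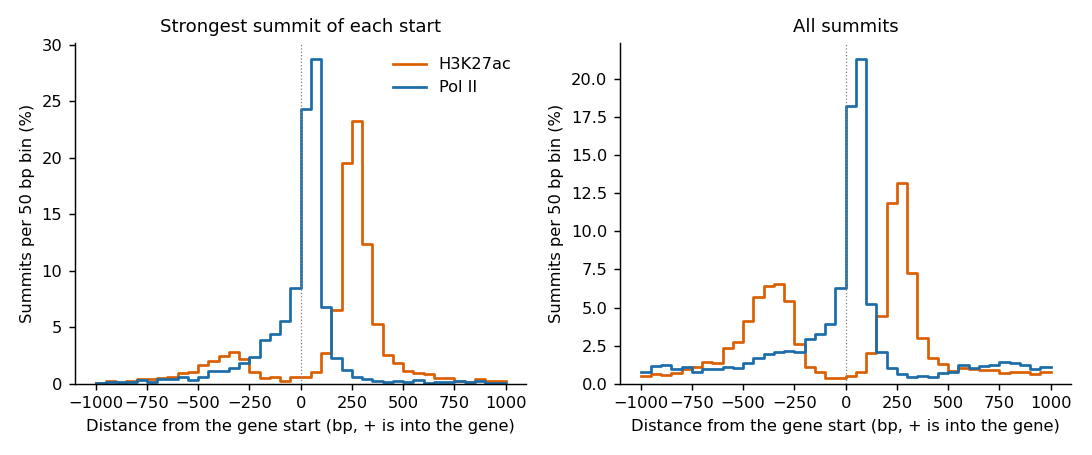
Position of summits within 1 kb of 3152 gene starts that carry both marks (bp, positive into the gene; percent of summits per 50 bp bin), for the strongest summit of each start (left) and for all summits (right). Pol II peaks just inside the gene, with a median of 39 bp, and H3K27ac further in, with a median of 251 bp and a smaller upstream peak.

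Protein-coding gene starts held a minority of both lists, but 387 of the 500 highest H3K27ac regions and 410 of the 500 highest Pol II regions. They took 17.1% of H3K27ac regions, of which 92.4% overlapped Pol II, and 23.8% of Pol II regions, of which 88.8% overlapped H3K27ac. Inside genes the shares with the other mark fell to 24.9% of 32484 H3K27ac regions and 50.03% of 21095 Pol II regions. Away from any annotated gene, 28.9% of 19401 H3K27ac regions had Pol II, and 67.3% of 10724 Pol II regions had H3K27ac. Pol II outside gene starts and gene bodies was thus still mostly on H3K27ac, except past gene ends. Within 5 kb past a gene's end, 21.9% of 5151 Pol II regions had H3K27ac.

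Pol II without H3K27ac gathered towards the 3′ ends of genes. Past gene ends lay 18.6% of the Pol II regions without H3K27ac, 3.17% of those with it and 1.57% of the H3K27ac regions without Pol II. Inside genes of at least 20 kb, 33.5% of the 6643 Pol II summits without H3K27ac fell in the last of 10 equal parts of the gene and 15.1% in the one before. For the 7478 Pol II summits with H3K27ac the last part held 12.2%, and for the 19539 H3K27ac summits without Pol II it held 8.08%. An even spread would put 10% in each part.

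**Figure D3:**
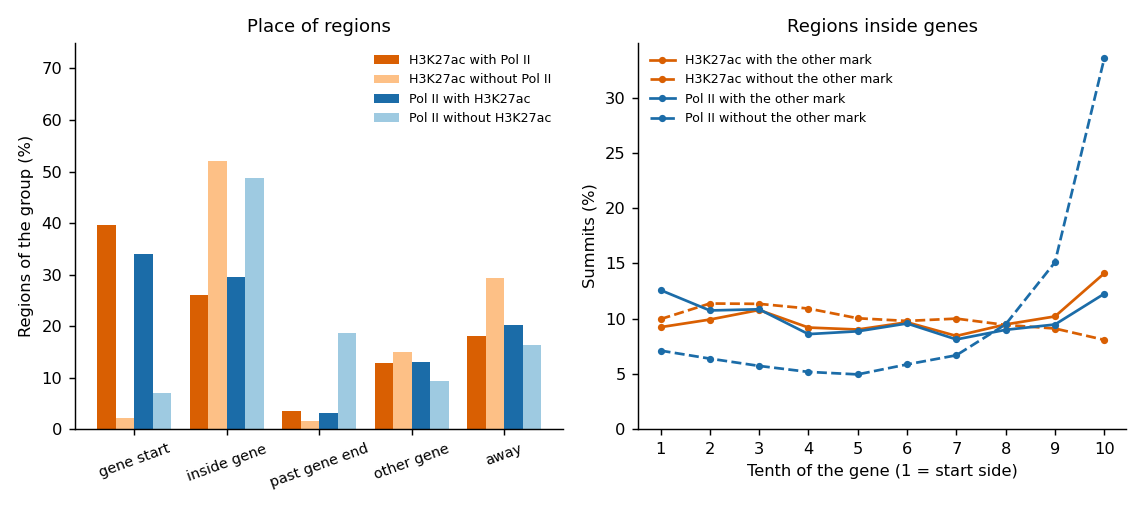
Left, share of each group of regions by place (%; bars add up to 100% per group; past gene end means within 5 kb); right, share of summits inside genes of at least 20 kb in each of 10 equal parts of the gene. Pol II without H3K27ac stands out past gene ends, at 18.6%, and in the last part of genes, at 33.5%.

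The same difference was seen along single genes. The 1216 genes used here were at least 20 kb long and had 1 listed start, which carried both marks. No other gene end lay within 2 kb of the start or within 5 kb of the end. At the start itself, H3K27ac covered 97.4% of these genes and Pol II 98.2%. At 1 kb into the gene H3K27ac still covered 72.1% and Pol II 25%, and at 5 kb 7.40% and 1.97%. Past the end the order turned: at 1.5 kb downstream Pol II covered 20.1% of genes and H3K27ac 5.51%. H3K27ac thus reached further into genes from the start, and Pol II reappeared past the end.

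**Figure D4:**
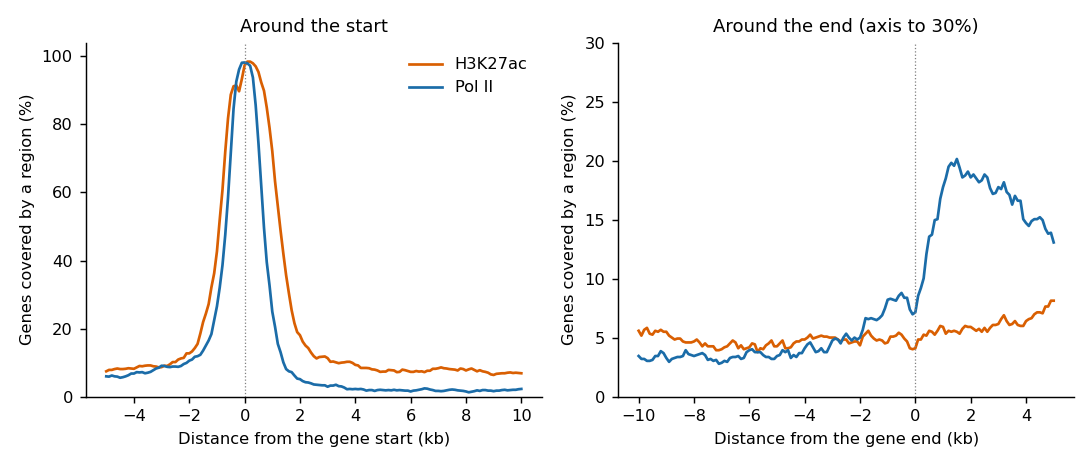
Share of 1216 genes covered by a region of each mark (%) by distance from the gene start (left) and from the gene end (right; axis to 30%), uninduced cells. H3K27ac is the broader at the start, and Pol II rises past the end to 20.1% at 1.5 kb.

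Nearly all protein-coding gene starts held both marks or neither. Both marks were at 12315 of 19970 genes (61.7%), neither at 6520 (32.6%), H3K27ac alone at 598 (2.99%) and Pol II alone at 537 (2.69%). Of genes with H3K27ac at the start, 95.4% also had Pol II, and of genes with Pol II, 95.8% had H3K27ac. For 4159 genes, all 714 of chromosome 8 among them, no start was listed, so both ends stood for the start. Among the 15811 genes with a listed start the shares were 63.8%, 31.4%, 2.61% and 2.26% in the same order.

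Starts with 1 mark carried weak regions. The median −log10 q was 178.7 for H3K27ac and 215.9 for Pol II at starts with both, 13.7 for H3K27ac alone and 11.4 for Pol II alone. The strongest summit was also further off: within 1 kb of the start at 60.0% of genes with H3K27ac alone and 60.3% with Pol II alone, against 92.4% and 93.8% of genes with both. In induced cells 98.5% of the genes with both marks kept both, and 98.5% of those with neither kept neither. The single-mark states held for 78.6% (H3K27ac alone) and 76.4% (Pol II alone), and most of the rest, 17.7% and 17.5%, had neither mark in the induced lists.

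At the 12315 starts with both marks, stronger H3K27ac went with stronger Pol II. Across these genes, which are not independent replicates and share their lists and inputs, Spearman's rho was 0.52 for −log10 q (Pearson's r 0.56) and 0.63 for region width (r 0.47). The share of the gene that Pol II regions covered rose with the width of the H3K27ac region at the start. Its medians were 2.63%, 3.72%, 5.14% and 9.47% over 4 equal groups of genes of at least 5 kb, from the narrowest to the widest H3K27ac region. In genes of 20 to 50 kb they were 2.95%, 3.88%, 5.06% and 9.92%.

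Starts with both marks had the highest CpG content. In the 300-base window around each of 22131 listed starts (250 bases before, 50 after) the median number of CpG was 27 with both marks, 10.5 with Pol II alone, 5 with H3K27ac alone and 6 with neither. The quartiles were 19 and 35 with both, 3 and 13 with H3K27ac alone and 3 and 18 with neither, so the latter groups overlapped. Among starts with 0 to 4 CpG, 12.5% of 4018 carried both marks, and 7.47% carried H3K27ac alone. With 20 or more CpG, 82.9% of 11699 carried both, and 1.13% carried H3K27ac alone and 1.16% Pol II alone. Of the starts with H3K27ac alone, 31.3% held 10 or more CpG, against 53.7% with Pol II alone, 90.4% with both and 39.1% with neither. The printed starts include exceptions. H2AC6 and GUCA2A carried both marks with 8 and 7 CpG per window, below that group's lower quartile of 19. CRISPLD2, with Pol II alone, had 31 against its group's median of 10.5. H1-1, with neither mark, had 17, which lay inside the quartiles of its group.

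Motif letters, searched on both strands in the same windows, differed along with CpG. GGGCGG, the GC box, was in 72.1% of windows with both marks, 43.0% with Pol II alone, 30.8% with H3K27ac alone, 31.9% with neither and 56.3% of all. CCGGAA, the core of ETS factor sites, was in 29.7%, 8.68%, 6.49%, 8.31% and 21.2% in that order. Both hold a CG, so they overlap with the CpG count. TATAAA anywhere in the window ran the other way, at 5.15%, 9.71%, 13.7%, 16.6% and 9.46%. On the gene's strand and near the distance from the start seen in H2AC6, REG4 and H1-1, it was rarer. That placed TATAAA was in 1.52%, 3.72%, 5.01%, 5.50% and 3.05%. TGAGTCA, the AP-1 site, was in 3.11%, 5.17%, 9.73%, 4.99% and 4.01%, highest with H3K27ac alone. ATCAAAG, a TCF core, was in 1.38%, 2.69%, 1.92%, 3.01% and 1.99%, and CCAAT in 34.9%, 31.2%, 30.8%, 34.8% and 34.6%. A match is a run of letters, not a bound site.

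The guanylate cyclase C genes differed among themselves. GUCA2A carried both marks. The H3K27ac region was 3122 bp wide (−log10 q 78.4, strongest summit 0.52 kb from the start). The Pol II region of 7116 bp (64.2) lay mostly upstream of the start, with its strongest summit 2.58 kb away. Pol II regions covered 10.6% of the gene, and Pol II ranked low, at percentile 12.6 of starts with Pol II. H3K27ac also ranked low among starts with that mark. GUCA2B had neither mark, with H3K27ac at 10.2 kb and Pol II at 11.1 kb from its start. GUCY2C had neither as well, with H3K27ac at 4.23 kb and Pol II at 14.3 kb from the nearer gene end. Of the 3 genes, 1 therefore had both marks, against 61.7% of all genes.

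Wnt and TCF target genes carried both marks at 33 of 38, 86.8% against 61.7% of all genes, with H3K27ac alone at MMP7 and WIF1 and neither at DKK1, OLFM4 and SMOC2. Widths stood above those of all genes, with medians of 3513 bp for H3K27ac and 2446 bp for Pol II against 2451 and 1665 bp. AXIN2, a feedback inhibitor of Wnt signalling, lay within an H3K27ac region of 44673 bp, the fifth widest of the list, of which Pol II regions covered 80.9%. Both marks covered the whole of ASCL2, the crypt stem cell regulator, with regions of 16292 and 15590 bp. LGR5, the stem cell receptor, had narrower regions of 4505 and 2792 bp. MYC, the growth regulator, had a Pol II −log10 q of 421.9, at percentile 98.2 of starts with Pol II. Its H3K27ac −log10 q of 178.6, at percentile 52.0 of starts with H3K27ac, was near the median of starts with both marks. TCF7L2 itself had the reverse order of ranks, at percentile 79.4 for H3K27ac (−log10 q 238.0) and 16.5 for Pol II (90.9). AXIN2, ASCL2, LGR5 and MYC were among the 15 genes of the list that had no listed start and were placed by both ends. PHLDA1 and SOX4 had the list's highest joint ranks, with −log10 q of 306.3 and 291.4 for H3K27ac and 421.2 and 368.0 for Pol II.

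Gut lineage lists lay near all genes in their shares with both marks, 52.5% of colonocyte and 52% of goblet and secretory genes against 61.7%. The shares with neither were 42.5% and 32% against 32.6%. Of 40 colonocyte genes 21 carried both marks, CDX2 and KLF5 (intestinal transcription factors) with the highest joint ranks, and 17 carried neither, among them KRT20, CA1, SLC26A3, AQP8 and FABP1. TSPAN1 had H3K27ac alone and MYO1A, a brush border myosin, Pol II alone. Of 25 goblet and secretory genes 13 had both, FOXA1 and MUC5B in the lead, 8 had neither, MUC2 and ATOH1 among them, and 4 had H3K27ac alone (TFF2, SPDEF, ZG16, REG4). That is 16% of the list against 2.99% of all genes, a count of 4 that was not tested. Both ends stood for the start in 10 of the colonocyte and 8 of the goblet and secretory genes. MUC5B was among them, and both of its regions lay at its end of higher coordinate, which was not known to be its start. At SPDEF, the goblet cell regulator, the H3K27ac summit was 0.21 kb from the start with a −log10 q of 39.2, and the nearest Pol II region was 7.91 kb away. At REG4 these were 0.13 kb, 15.9 and 4.31 kb.

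Markers of epithelium and of other cell types were read against the label of the cells. Of all genes 61.7% carried both marks, 2.99% H3K27ac alone, 2.69% Pol II alone and 32.6% neither. All 20 epithelial genes carried both marks, with median widths of 7067 and 2522 bp and a median rank of 86.6 among 100 for H3K27ac and 76.8 for Pol II (ranks are percentiles of −log10 q among starts with the mark, so that 50 is the middle). KRT19 had −log10 q of 294.8 and 395.9, and ST14, a membrane protease, 340.7 and 379.6. Of 20 immune, stromal and endothelial genes 5 had both marks (CD3E, CD8A, CD14, CD68, COL1A1), 2 H3K27ac alone and 13 neither, PTPRC and VWF among them. Of 20 liver, muscle and neuron genes 4 had both, 3 H3K27ac alone, 2 Pol II alone and 11 neither, with ALB and MYOD1 in the last group. Both ends stood for the start in 10 of the epithelial, 13 of the immune, stromal and endothelial and 8 of the liver, muscle and neuron genes. Some calls rested on a weak or distant region. CD68 had an H3K27ac −log10 q of 7.67, at percentile 2.43, and a Pol II −log10 q of 234.9, at percentile 59.3. TNNI2, with H3K27ac alone, lay 0.27 kb outside a region whose strongest summit was 4.22 kb from the nearer end. CD3E, placed by both ends, had its regions at its end of higher coordinate, with the strongest H3K27ac summit 5.13 kb off.

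Growth and maintenance genes carried both marks almost without exception. This was so for 42 of 42 large-subunit ribosomal proteins, 20 of 20 housekeeping genes, 20 of 20 chaperones, 12 of 12 Pol II subunits, 25 of 25 pause and elongation factors, and 24 of 24 histone acetyltransferases, deacetylases and readers. It was also so for 29 of 30 cell cycle genes, against 61.7% of all genes, with CCND2 as the exception at 2.20 kb from H3K27ac and 2.35 kb from Pol II. Their ranks differed by mark. Ribosomal protein genes had median percentiles of 88.0 for Pol II and 68.9 for H3K27ac, and Pol II subunit genes 77.0 and 43.7. Acetyltransferases, deacetylases and readers had the opposite order, 51.7 and 70.4. POLR2A, the largest Pol II subunit, had a Pol II −log10 q of 527.2, and HSPA8, a constitutive chaperone, one of 448.8 in a region of 14464 bp.

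Most replication-dependent histone genes carried both marks. These lay at 48 of 55, 87.3% against 61.7% of all genes, and neither at 7, 12.7% against 32.6% (H1-1, H2BC1, H2BC3, H2BC10, H3C3, H3C8, H4C6), and none had 1 mark alone. The median percentile was 94.5 for Pol II and 58.3 for H3K27ac. Median coverage of a gene was 100% by either mark, against 5.08% by H3K27ac and 2.18% by Pol II over all genes. Genes such as H2AC6 (519 bp) and H1-1 (756 bp) are shorter than the list's median regions of 7222 bp (H3K27ac) and 4347 bp (Pol II). The part of gene length in this coverage was not tested. H2AC6 and its divergent neighbour H2BC4 shared 1 region of each mark, with −log10 q of 323.0 and 349.1. At H1-1 the nearest regions were 1.89 kb (H3K27ac) and 2.22 kb (Pol II) from the start. These genes have near-identical copies, so reads could be placed on the wrong copy.

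Of 26 immediate early genes 25 had both marks, 96.2% against 61.7% of all genes, and the median percentiles were 92.7 for Pol II and 79.6 for H3K27ac. ZFP36, which destabilises cytokine messages, had regions of 16132 and 15668 bp, and KLF6 −log10 q of 318.8 and 399.0. ATF3, a stress factor, had H3K27ac alone (−log10 q 135.2), and its nearest Pol II region was 1.13 kb from the start, just outside the window. Of 40 developmental regulators 8 had both marks, 2 H3K27ac alone (HOXD8, LHX9) and 30 neither, 75% against 32.6% of all genes. Those with marks had weak ones: PAX9 had −log10 q of 54.0 and 124.7, and the list's median percentiles were 7.27 and 10.0.

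**Figure D5:**
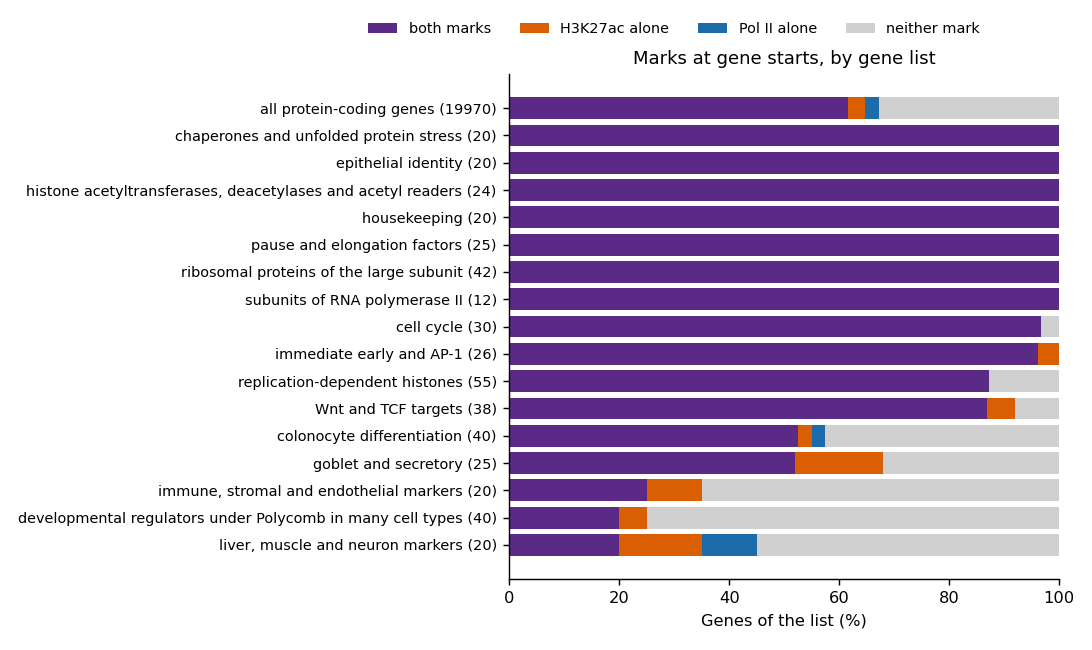
Share of genes (%) whose start carries both marks, H3K27ac alone, Pol II alone or neither, for all 19970 protein-coding genes and for each list of 10 or more genes (number of genes in brackets). Epithelial, ribosomal protein and housekeeping genes carry both marks throughout, against 61.7% of all genes, while developmental regulators carry both at 20% and neither at 75%.

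The strongest regions in the single-mark states were wide and centred away from the gene's start. With H3K27ac alone, the starts of SIGLEC15, PLXNB2, SULT1C4 and CAPN9 lay in regions of 12638 to 30135 bp whose strongest summits were 2.74 to 6.10 kb from the start, and Pol II regions were 1.54 to 2.45 kb away. With Pol II alone, a start or end of MMP19, KRT15 and MAMDC4 lay in regions of 12746 to 19974 bp, with summits 4.31 to 9.37 kb off. The region at KRT15 was that of KRT19 and covered 4.12% of KRT15. At ACP4 the region began 0.80 kb from the start.

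A summit at the start itself gave another set, chosen after the values were seen. Among genes with Pol II alone, a listed start and the strongest summit within 150 bp, CRISPLD2 had the highest −log10 q (103.8) in a region of 531 bp, 6.40 kb from H3K27ac. SLC4A8, SRPK3 and SPEF1 followed, at 78.0, 67.9 and 63.6. Among genes with H3K27ac alone and the summit within 1 kb, C10orf90 had 153.8, RHOH, a GTPase of blood cells, 125.5 and KCNMA1, a potassium channel, 117.6. At RHOH the nearest Pol II region was 84.3 kb away.

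Of the 46978 H3K27ac regions without Pol II, 51.9% lay inside protein-coding genes, and so did all of the 6 strongest. They were in FOCAD (chr9:20724592-20730328, −log10 q 262.9), HAO2 (chr1:119372320-119375340, 258.2), CLTC (chr17:59663249-59672126, 253.0), TSPAN14, NCAPG2 and APBB2. The nearest Pol II summits were 26.9 kb away in FOCAD, 23.05 kb in CLTC and 124 kb in HAO2, and in induced cells HAO2 alone of the 6 met a Pol II region. The strongest Pol II regions without H3K27ac overlapped HDAC2-AS2 (chr6:113980646-113988046, −log10 q 250.3), 9.50 kb from HDAC2, then INPPL1 with PHOX2A, ARRB1, AGR2 and ASMTL. The nearest H3K27ac summits to these 5 regions were 4.98 kb (AGR2) to 24.4 kb (ASMTL) away. ASMTL lies in the pseudoautosomal part of X, where reads of X and Y are not told apart.

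Small nuclear RNA genes, which make the spliceosome's RNAs, topped the Pol II list and not the H3K27ac list. Of the 50 highest Pol II regions 25 overlapped an annotated snRNA gene and 19 were at protein-coding starts. Of the 50 highest H3K27ac regions 0 overlapped an snRNA gene and 41 were at protein-coding starts. Over the whole lists 0.101% of Pol II and 0.0705% of H3K27ac regions overlapped an snRNA gene, so the 0 of 50 for H3K27ac was near its share. All 50 in either list overlapped the other mark. The Pol II region at RNVU1-14 had a −log10 q of 577.1 and that at RNU2-2 beside WDR74 575.4. The first of the list, at 578.8, lay on RNU1-27P, a pseudogene. These genes too have near-identical copies, so single placements are uncertain. Within 1 kb of 154 snRNA genes both marks were found at 37.7%, Pol II alone at 3.25% and H3K27ac alone at 2.60%. Of 443 tRNA genes, which Pol III transcribes, 57.8% had both marks and 11.1% H3K27ac alone. Counted in the same way, over the whole gene, 70.5% of protein-coding genes had both marks and 5.14% H3K27ac alone. For lncRNA genes these shares were 31.5% and 11.8%. Protein-coding and lncRNA genes are longer, with median lengths of 24190 and 9083 bp against 120 bp for snRNA and 73 bp for tRNA genes. Among genes more than 5 kb from protein-coding genes, both marks were at 19.01% of lncRNA and 47.5% of tRNA genes. The share of snRNA genes was not lower there, at 41.3%. The part of neighbouring protein-coding genes in these shares was not tested.

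The 6 widest H3K27ac regions were each met by several Pol II regions, from 5 to 29. The widest H3K27ac region, 107742 bp from HOXB2 to past HOXB9 (chr17:48545044-48652785), was covered to 94.6% by 5 Pol II regions, among them the widest Pol II region at 63699 bp. The next, 87604 bp over HOXA3 to HOXA13, was covered to 81.4% by 29 Pol II regions. Others lay over MIRLET7BHG (79792 bp), LINC-PINT (75820 bp) and BMP4 (42072 bp, 54.3% covered). Beyond HOXB, wide Pol II regions lay over the 5S rRNA repeats at RHOU (40436 bp, another repeat), MIRLET7BHG, POLR2L with CD151 (35641 bp), NEAT1 (32556 bp) and INTS11 with ACAP3. Genes of at least 5 kb with H3K27ac at the start that Pol II covered whole included IMPDH2 with DALRD3 (1 region of 17034 bp), HNRNPAB, MEPCE, CIRBP and SLC34A3. At SLC34A3 H3K27ac ranked low among starts with the mark, at percentile 9.86 (−log10 q 43.1). Its Pol II region ranked high, at percentile 99.7 (486.3), with the summit 10.4 kb off.

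Chromosomes differed in the balance of the marks. Chromosome 19 was the one of the 23 with fewer H3K27ac than Pol II regions, 2824 against 3538. There 59.7% of H3K27ac regions had Pol II, the highest share, and 53.3% of Pol II regions had H3K27ac, the lowest. Chromosome 6 had the highest share of Pol II regions with H3K27ac, 69.3%, and chromosome X the lowest share of genes with both marks, 44.9%.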

How the data were processed

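ChIP-seq of H3K27ac and Pol II in DLD1 cells was analysed; RNA-seq, inputs and signal tracks were not used here. Per the submitters' processing notes, which give no roles, MACS2 2.1.1.20160309 and BWA 0.7.17-r1188 were among the tools, with SAMtools 1.10 and deepTools 3.5.0, and the builds were hg19 and hg38. Regions of chromosome 17 reach 83228308, so positions were read as GRCh38. How the caller was set and whether samples were pooled is not given in the sources. The authors' lists hold, per summit, a fold over background (a ratio), a −log10 q and an offset; the deposited −log10 p was not used. The deposited score column was not used. The smallest deposited −log10 q is 1.30. Columns of unmatched samples numbered 0.

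Only rows on chromosomes 1 to 22 and X were kept, dropping up to 0.603% of a list, and each region kept its summit of highest −log10 q. Overlap is at least 1 bp, and counts equalled those of bedtools 2.31.1. Python 3.11.15, numpy 2.4.6, pandas 2.3.3 and scipy 1.17.1 were used, and the interval code was checked on simulated data. Gene starts came from the RefSeq promoter table (start within the gene), and 19970 protein-coding genes from the RefSeq gene table. Places were assigned in the order gene start, gene body, within 5 kb past an end, other annotated gene, away. Coverage of a gene is the percent of its bases under regions. With 1 list per group, no test between groups could be run.

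The members and the 17 gene lists were chosen with earlier results of these data known; 453 list genes matched. Genes named were 8 in any case; per list the 2 with the highest lower rank of both marks and the 2 strongest outside the list's commonest state; the 8 strongest of each single-mark state with no other start within 2 kb; the 6 strongest regions of each mark without the other; the 6 genes most covered by Pol II and the 6 with the widest H3K27ac. Others were chosen after their values were seen. Some genes that the rule names are not reported here.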

Additional observations from a re-analysis of the deposited data

How the results depend on the processing

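Alternatives changed the list, the overlap rule, the window or the way a start was placed; 27 of 47 values stayed within their interval or within 1.5 times the count. The share of Pol II regions on H3K27ac was 75.4% at a −log10 q of at least 5 and 72.7% among the 20000 highest regions of each list. It was 60.8% when 50% of the smaller region had to be shared and 51.7% for windows of 1 kb on the strongest summits. The share of H3K27ac regions on Pol II was 41.8%, 69.6%, 38.7% and 38.1% in that order. The median summit distance was 213 bp among the 20000 highest and 287 bp to the strongest H3K27ac summit of a region. At a −log10 q of at least 5, median widths with and without the other mark were 2324 and 1069 bp for H3K27ac and 1124 and 1091 bp for Pol II. Among the 20000 highest they were 2762 and 3566 bp, so the order turned, and 1635 and 1100 bp. There H3K27ac alone was at 179 genes and Pol II alone at 1636, where the cut leaves out more of the longer H3K27ac list. The other alternatives for the 4 gene states, among them only genes with a listed start, which was chosen after seeing the data, stayed within 1.5 times.

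No paired analysis was possible because each mark and condition has 1 list for both samples, with no values per replicate. For the same reason no replicate was left out. Depth is known only as a range of reads per sample, and weak regions depend on it.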
